A study of Mus musculus with 4 samples.

Results

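Neutrophil-rich lung spots were the 10% of spots in each lung section with the highest share of unique molecular identifiers (UMIs) on 8 neutrophil genes, S100a8, S100a9, Retnlg, Ly6g, Csf3r, Mmp8, Ngp and Camp. In mouse A 170 of 1697 lung spots were members and in mouse B 278 of 2780, or 448 of 4477 in all. The sections came from 2 BALB/c mice, called A and B in the order of the animal numbers in the labels, that received 100000 4T1 cells in the mammary fat pad at 8 weeks of age and were sacrificed on day 28. 4T1 cells are a metastatic breast cancer line of this strain, and both animals carried it, so no lung without a tumour elsewhere in the body is among the groups. One 4 µm lung section and one 4 µm primary tumour section per mouse were profiled with Visium probes for fixed tissue, and a spot covers a patch of tissue with more than one cell, often of more than one type. In each section the neutrophil-rich spots were set against the 50% of spots with the lowest score, 849 spots in A and 1390 in B, which are called low spots. The unit of comparison was the sum of UMIs per section and class (n = 2 mice).

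Neutrophils are short-lived granulocytes made in the bone marrow under the control of granulocyte colony-stimulating factor. They store antimicrobial proteins in granules that are filled in sequence, with primary granule proteins such as myeloperoxidase and elastase made in the earliest precursors, secondary granule proteins such as lactoferrin and lipocalin 2 made later, and gelatinase and receptors made last. The lung holds a large pool of neutrophils in its capillaries even at rest, and 4T1 tumours are known to expand these cells in the blood.

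The lung of mouse B was the deeper section, with 30240176 UMIs against 11122812 in mouse A. Neutrophil-rich spots had a median of 7129.5 UMIs in A and 7752 in B. Low spots had 5748 and 12385.5. The members were therefore deeper than the low spots in mouse A and shallower in mouse B. In the primary tumour, the spots chosen by the same rule had medians of 973 and 2322 UMIs. Visium arrays repeat the same barcodes, so 1458 barcodes occurred among the spots of both lungs, and 14 of them marked a member in each.

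The 8 score genes chose the members, so their values are given as a description. They took a median of 10.8% of the UMIs of a neutrophil-rich spot in mouse A (range 10.2% to 16.2%) and 8.92% in mouse B (8.32% to 11%). In the low spots the median was 7.11% in A and 1.07% in B. The low spots of mouse A were thus still rich in neutrophil transcripts, while those of mouse B were not, and most rises given below are larger in mouse B. The rule cut a continuous range: the lowest member and the highest spot left out had scores of 10.1891% and 10.1886% in mouse A, and 8.3186% and 8.3151% in mouse B.

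S100a8 and S100a9, which form the calcium-binding alarmin calprotectin, made up 83.3% of the score UMIs of the members in A and 81.3% in B. Levels are given as CPM, the UMIs of a gene per 1000000 UMIs of the sum. S100a9 stood at 51959 CPM in the members and 28698 in the low spots of mouse A, and at 36984 and 5033 in mouse B. Both genes had UMIs in 100% of low spots as well. Ly6g, the surface antigen that defines mouse neutrophils, was detected in 94.7% of the members and 68.7% of the low spots in mouse A, and in 80.2% and 31.0% in mouse B. Ngp, a secondary granule protein of the cathelicidin family, reached 8778 and 7358 CPM in the members of the 2 lungs. On the log2 scale the 8 genes differed between members and low spots by 0.74 (Csf3r) to 0.93 (Ngp) in mouse A and by 2.76 (Ly6g) to 2.88 (S100a9) in mouse B. Within each lung the 8 genes stood nearly the same distance above the low spots, a description of the genes that chose both classes.

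**Figure D1:**
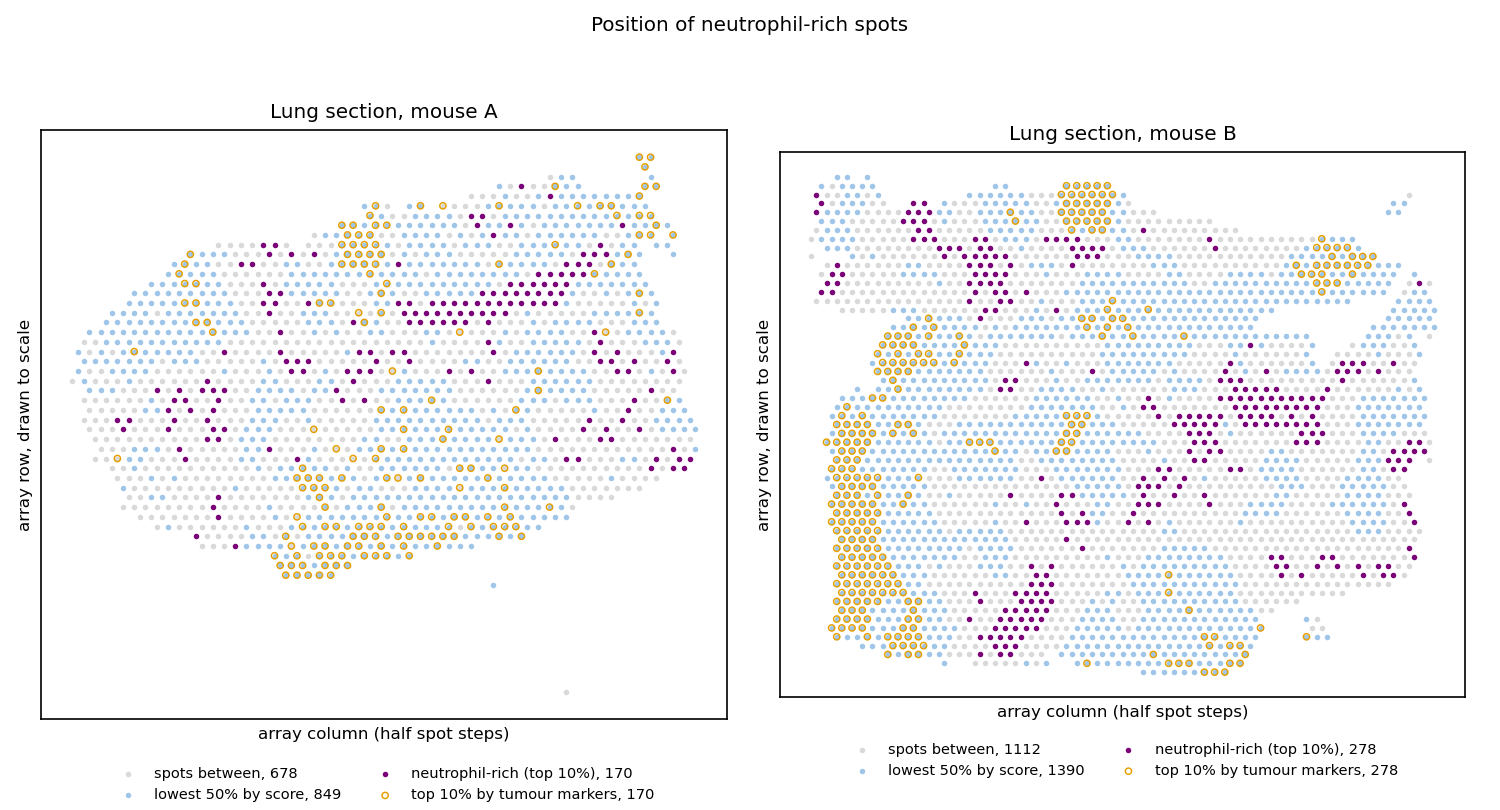
Position of the 170 and 278 neutrophil-rich spots (purple) on the hexagonal array of the lung sections of mouse A and mouse B, with the low spots in blue, the spots between in grey and the 10% of spots with the highest share of 4T1 tumour markers ringed in orange. Each point is 1 spot, drawn to scale. No purple point is ringed in either section, and many purple points lie side by side.

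Position was not used by the rule. Of the spots next to a member, 41.2% were members in A and 53.9% in B, against the 10.0% that members made up of each section. Low spots were 10.5% and 2.09% of the spots next to a member. The members formed 47 connected groups in mouse A, the largest of 57 spots, and 43 groups in mouse B, the largest of 51. They stood alone, with no adjacent member, in 24 and 19 cases. Spots that touched a member but were not members themselves had a median score of 9.26% in A and 7.41% in B. The other spots left out had 7.70% and 2.43%, and these medians describe the score that chose the members. Since adjacent spots share tissue and can share RNA, these shares are a description without a test.

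Members lay away from tumour tissue. Of the 170 spots of mouse A with the highest share of 4T1 tumour markers, 0 were members, which allows a share of up to 1.76% (3 counts of the total; exact 95% upper limit 2.15%), and of the 278 such spots of mouse B, 0 were members, which allows up to 1.08% (exact 1.32%). These limits treat spots as independent, which adjacent spots of a section are not, so they are a description. Of these tumour marker spots, 155 and 278 were low spots. The median distance to the nearest one was 4 array steps for members and 1 step for low spots in mouse A, and 9 and 2 steps in mouse B. Because the score is a share of all UMIs, a spot filled by tumour cells has less room for neutrophil transcripts by construction. At the edge of the tissue lay 5.88% of members and 13.1% of low spots in mouse A, and 7.55% and 13.2% in mouse B.

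The genes outside the score were then compared between neutrophil-rich and low spots by edgeR's quasi-likelihood test, with the mouse as a block and Benjamini-Hochberg adjustment. Of 12049 genes tested, 774 were higher in the members (6.42%) and 855 were lower (7.1%) at an adjusted p under 0.05. Of the 774, 729 were higher in both mice, and of the 855, 853 were lower in both, against 21.7% and 52.0% of all genes tested that were higher or lower in both mice. The median log2 fold change over all genes tested was -0.078. With 4 sums, 1 residual degree of freedom is left, and the test leaned on the spread shared across genes, with a prior of 231 degrees of freedom. When the score left out S100a8 and S100a9 that prior was 11.5, no gene was called higher and 29 were called lower, although Fpr2, for example, kept a log2 fold change of 2.07 (SE 0.59) against 2.16 (SE 0.56). Without the block no gene was called by edgeR, with 746 genes at an unadjusted p under 0.05. In a bulk sum over spots, fewer cells of a type and less RNA per cell cannot be told apart.

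Receptors and adhesion molecules of neutrophils rose together. Of 26 genes tested, 22 rose and none fell in the edgeR fit, beside 6.42% and 7.1% of all genes, with a median log2 fold change of 1.77. The median was 0.71 in A and 2.42 in B, and 25 of the 26 were higher in both mice, against 21.7% of all genes tested. Cxcr2, the receptor for neutrophil-attracting CXC chemokines, stood at 1565 CPM in members and 940.1 in low spots of mouse A, and at 1431 and 225.0 in mouse B (log2 fold change 1.94, SE 0.64, edgeR adjusted p = 0.0258). Both member sums lay above both low sums. Fpr2, a formyl peptide receptor for bacterial and mitochondrial peptides, went from 506.9 in low spots to 960.7 in members of mouse A and from 114.6 to 865.9 in mouse B (adjusted p = 0.00357 by edgeR). Selplg, the ligand of P-selectin, rose by 2.03 (SE 0.64) on the log2 scale. Trem1, an amplifier of myeloid activation, rose by 2.02 (SE 0.38), and Il1r2, the decoy receptor of interleukin 1, by 2.15 (SE 0.49). Il1r2 was the only one of these that differed much in level between the members of the 2 mice, at 284.6 CPM in A and 906.3 in B. Cxcr4, which holds neutrophils in the marrow and returns old cells to it, rose by 1.34 (SE 0.36). The 4 genes of the list that did not pass the test were Fcgr3 (log2 fold change 1.47), Itgb2 (1.32), Tnfrsf1b (0.86) and Clec4n (-0.42), and Clec4n alone was lower in members in both mice.

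Secondary and tertiary granule genes stood above the low spots in 19 of 20 tested genes in both mice, with a median log2 fold change of 1.80. Only 9 passed the test and none was called lower. Among all genes tested, 21.7% were higher in both mice, 6.42% were called higher and 7.1% lower. Stfa3, a stefin protease inhibitor of mouse neutrophils, had 1564 CPM in members and 809.7 in low spots of mouse A, and 1824 and 230.1 in mouse B (log2 fold change 2.21, SE 0.66, edgeR adjusted p = 0.0130). Olfm4, which marks a subset of neutrophils, rose by 2.20 (SE 0.43), and Cd177, a surface protein stored in these granules, by 2.10 (SE 0.63). Pglyrp1, a peptidoglycan-binding protein, had an adjusted p of 0.0471 by edgeR at a log2 fold change of 2.12 (SE 0.77). The genes of the list with the highest levels had fold changes of like size and wider errors. Anxa1, which encodes annexin A1, stood at 5919 and 5464 CPM in the members of the 2 lungs (log2 fold change 1.81, SE 0.92, edgeR adjusted p = 0.187). Lcn2, the iron-siderophore binder lipocalin 2, stood at 5402 and 4192 in the members against 3341 and 756.2 in the low spots (1.82, SE 0.90, adjusted p = 0.169 by edgeR). Ltf, which encodes lactoferrin, and Mmp9, gelatinase B, had values of 1.73 (SE 0.71) and 1.93 (SE 0.74) and did not pass.

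Primary granule genes behaved differently between the mice. Prtn3, which encodes proteinase 3, had 91.8 CPM in members and 85.1 in low spots of mouse A, and 51.6 and 17.5 in mouse B. Elane, neutrophil elastase, had 38.4 and 31.0 in mouse A, and 22.9 and 8.13 in mouse B. Of 7 genes tested, Prtn3, Elane and Fcnb were called higher by edgeR, beside 6.42% of all genes tested. Mpo, which encodes myeloperoxidase, was not called (log2 fold change 0.90, SE 0.40, edgeR adjusted p = 0.121). The list's median was 0.11 in A and 1.54 in B, so the calls rest on mouse B. The list sum was 407.3 CPM in members and 463.7 in low spots of mouse A, and 248.9 and 170.2 in mouse B. Summed over the list, the level in bins of 10% of spots by score peaked at 529.3 CPM in the fourth bin of mouse A and at 288.4 in the seventh bin of mouse B, and was 405.5 and 248.9 in the last bin. The summed level of the list was thus not highest in the most neutrophil-rich spots. Prtn3 and Elane, by contrast, were higher in members than in low spots of both mice. Restricted to alveolar spots, as described below, Prtn3 had a log2 fold change of -0.083 (SE 0.23) and Elane of -0.057 (SE 0.29), both near 0 against their errors. Per mouse Prtn3 stood at 0.020 in A and -0.46 in B, and Elane at 0.35 and -0.78. There 0 of 7 genes of the list were called, beside 5.97% higher and 8.05% lower over all genes tested. The list sum leans on Ctsc, a cathepsin gene, which alone held 173.9 of 482.7 CPM in those members of mouse A. In mouse B it held 78.9 of 214.6.

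**Figure D2:**
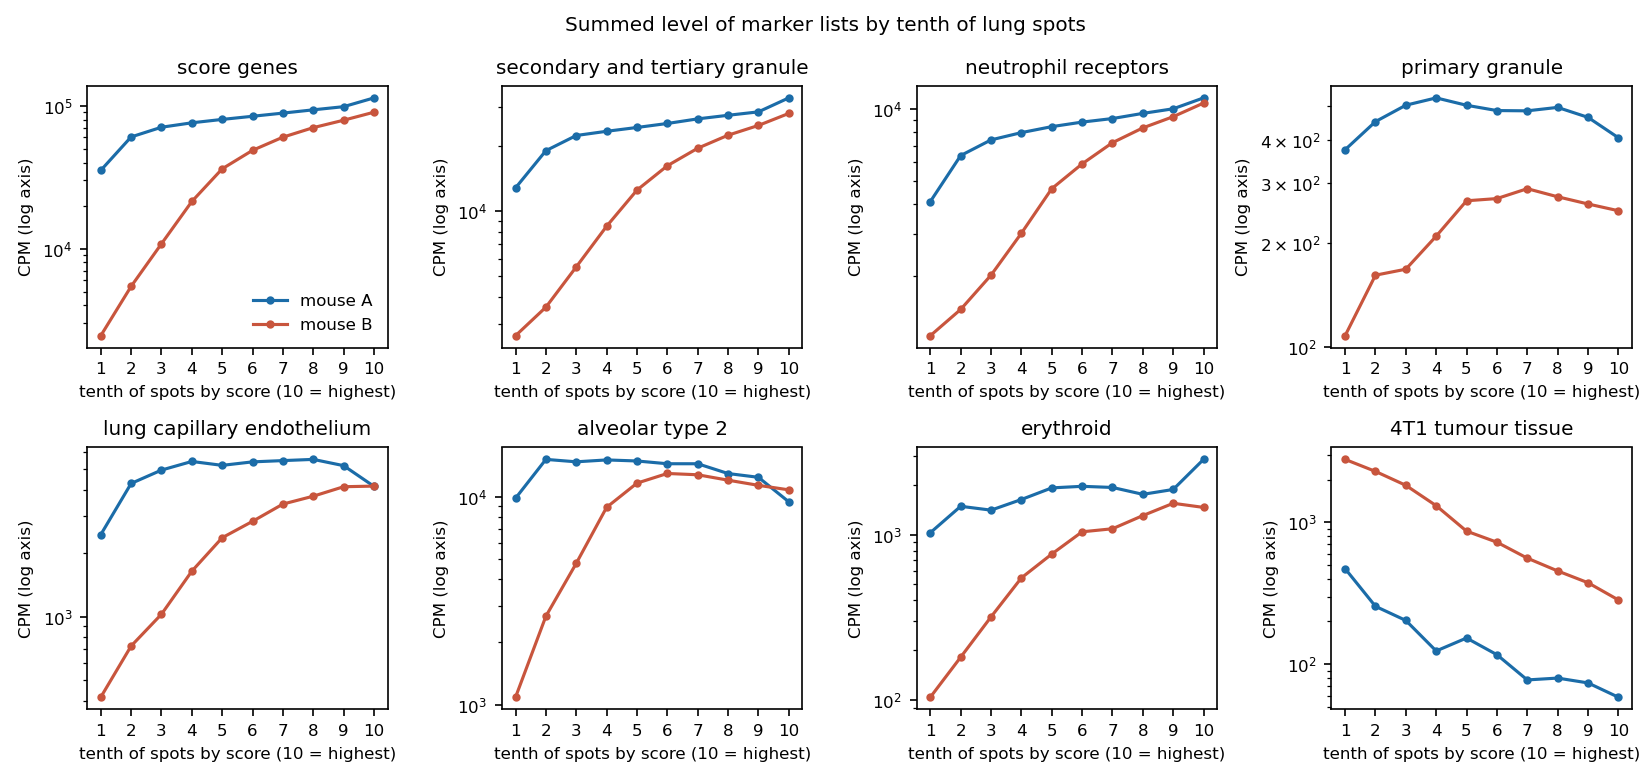
Summed level of 8 gene lists (CPM, log axes that differ between panels) in each bin of 10% of lung spots ordered by the neutrophil score, from the lowest bin (1) to the last bin (10, the members to within 1 spot), in mouse A (blue) and mouse B (red). Secondary and tertiary granule genes and receptors climb to the last bin in both mice, and the primary granule sum peaks before it. Tumour markers fall from 471.9 to 58.5 in mouse A and from 2785 to 284.0 in mouse B.

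Genes of the oxidative burst and of granulocyte transcription were called in part. Ncf4 and Ncf1, cytosolic subunits of the phagocyte NADPH oxidase, rose by 1.90 (SE 0.54, edgeR adjusted p = 0.00821) and 1.91 (SE 0.69, adjusted p = 0.0472 by edgeR), and Cybb, the catalytic subunit, by 1.66 (SE 0.55). Cyba, its partner in the membrane, and the proton channel Hvcn1 did not pass, so 3 of 5 genes rose, with a list median of 1.66. Of 10 tested genes of granulocyte transcription and survival, 4 rose and none fell. That count and the 3 of 5 stand beside 6.42% of all genes tested called higher and 7.1% lower. Cebpe, the factor that drives the switch to secondary granules, had 66.5 CPM in members and 47.3 in low spots of mouse A, and 44.7 and 8.03 in mouse B (log2 fold change 1.72, SE 0.39, edgeR adjusted p = 7.98e-04). Spi1, which encodes PU.1, rose by 1.85 (SE 0.57). Mcl1, on which neutrophil survival depends, was at 1922 and 2049 in the members and did not pass (1.33, SE 0.67, edgeR adjusted p = 0.178).

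Promoters of the granule and score genes were read for the letters TTGCNNAA on both strands, a loose form of the site that C/EBP factors, Cebpe among them, bind. The window was the 300 bases from 250 before to 50 after the gene start, in RefSeq on GRCm38.p6. Of 33 genes on the score and secondary and tertiary granule lists, 30 had an entry, with 32 promoters. The letters occurred in 13 of the 32 promoters (40.6%) and in 3547 of all 32851 promoters (10.8%). A match is a description and not a bound site. The 3 below are shown as a score gene with more than one match, the lactoferrin gene, and Adam8, a metalloprotease gene of the list that was called higher (log2 fold change 1.30, SE 0.46). Capitals mark the matches, and each is written 5′ to 3′ on the strand of its gene.
Ngp, chr9:110419558-110419857, plus strand: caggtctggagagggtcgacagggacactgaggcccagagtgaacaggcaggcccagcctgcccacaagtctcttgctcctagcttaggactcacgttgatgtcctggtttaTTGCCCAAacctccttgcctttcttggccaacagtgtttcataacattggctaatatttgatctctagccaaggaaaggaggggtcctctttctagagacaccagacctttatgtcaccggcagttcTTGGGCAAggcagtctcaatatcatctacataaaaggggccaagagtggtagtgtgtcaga
Ltf, chr9:111019042-111019341, plus strand: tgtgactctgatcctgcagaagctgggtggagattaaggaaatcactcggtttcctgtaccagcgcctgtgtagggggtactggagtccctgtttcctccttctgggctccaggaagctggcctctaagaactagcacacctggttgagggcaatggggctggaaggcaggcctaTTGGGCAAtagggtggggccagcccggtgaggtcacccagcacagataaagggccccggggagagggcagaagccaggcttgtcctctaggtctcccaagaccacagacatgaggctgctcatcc
Adam8, chr7:139992513-139992812, minus strand: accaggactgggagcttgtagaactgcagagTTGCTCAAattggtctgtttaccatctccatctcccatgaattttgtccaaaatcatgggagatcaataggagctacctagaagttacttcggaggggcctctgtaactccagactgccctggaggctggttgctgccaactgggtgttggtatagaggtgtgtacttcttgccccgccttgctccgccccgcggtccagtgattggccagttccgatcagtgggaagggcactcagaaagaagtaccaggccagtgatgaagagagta

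Among the 15 genes with the largest rise that were higher in both mice and had at least 20 CPM on average, several are known from granulocytes. Nfe2, a transcription factor of blood cells, had 208.8 CPM in members and 107.7 in low spots of mouse A, and 189.3 and 22.9 in mouse B (log2 fold change 2.24, SE 0.40, edgeR adjusted p = 2.77e-05). Scrg1 led the list at 2.45 (SE 0.45) from lower levels, 29.0 and 48.9 in the members of the 2 lungs. Alox5, the enzyme that starts leukotriene synthesis, rose by 2.15 (SE 0.46), and Il1f9, an interleukin 36 cytokine, by 2.21 (SE 0.50). Ifitm6, Mrgpra2b, Ceacam10, Csta3 and Ggt1 were also among them, as were Rdh12, Ugt8a and 4930438A08Rik. Both member sums lay above both low sums for all 15, as they did for 13.8% of all genes tested, and the choice of these genes nearly fixes that.

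Interleukin 1 and inflammasome genes rose in 7 of 12 cases and fell in none, beside 6.42% and 7.1% of all genes tested. Il1b, the main secreted form, had 1050 CPM in members and 697.3 in low spots of mouse A, and 494.6 and 126.6 in mouse B (log2 fold change 1.52, SE 0.53, edgeR adjusted p = 0.0373). Il1rn, its secreted antagonist, rose by 1.24 (SE 0.36), Nlrp3, an inflammasome sensor, by 1.15 (SE 0.41), and Casp4 by 1.35 (SE 0.39). Il1a had at most 9.86 CPM in any of the 4 sums and did not pass.

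Of 14 tested genes on a list of markers and products of suppressive myeloid cells, 5 rose and 2 fell (6.42% and 7.1% over all genes). Cd84, Prok2, Jaml and Nos2 were among the rises and Ptgs2 among the falls. The median of the list was 1.14, with 0.32 for mouse A and 1.22 for mouse B. Prok2, a chemokine-like protein of neutrophils, had 420.4 and 220.7 CPM in members against 243.7 and 36 in low spots (log2 fold change 1.94, SE 0.43). Wfdc17, the most abundant gene of the list at 8431 and 7365 in members, did not pass (2.06, SE 1.06, edgeR adjusted p = 0.193).

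Of 18 genes for the ligands that neutrophils answer to, 2 were higher and 4 lower (6.42% and 7.1% over all genes), with a median of 0.033. That median was -0.71 for mouse A and 0.41 for mouse B. Csf3, which encodes granulocyte colony-stimulating factor, had 0.936 and 18.1 CPM in members and 13.6 and 227.1 in low spots, the largest fall among called genes with at least 20 CPM on average (log2 fold change -3.46, SE 0.48, edgeR adjusted p = 1.30e-07). In the same low spots the summed 4T1 tumour markers stood at 259.8 and 1984 CPM, against 58.1 and 284.0 in members. Csf3 is itself 1 of the 11 genes of that sum, so the sum is not independent of its fall. The part of tumour tissue in the falls of these ligands was not tested. Cxcl1, a CXCR2 ligand, fell by 1.55 (SE 0.55), and Mif by 1.69 (SE 0.46). Ppbp, a platelet chemokine that also acts on CXCR2, rose by 1.53 (SE 0.45). Il17a had 0 UMIs in the members of both lungs. It was at the floor in low spots as well, with 0 and 0.149 CPM among the alveolar ones described below, so the 0 does not set members apart.

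Of 22 interferon-induced genes tested 4 were higher and 1 was lower, with a median of -0.22 (6.42% and 7.1% called over all genes). Ifitm6 rose by 2.23 (SE 0.76) and Slfn1 by 2.01 (SE 0.51). Ifitm1, the most abundant of them at 6847 and 4808 CPM in members, did not pass (1.94, SE 0.96). The summed level of the list was 13061 CPM in members and 8606 in low spots of mouse A, and 9847 and 3106 in mouse B. The sum and the median of this list therefore point in opposite directions. MHC class II genes were lower in the members of both mice in all 7 cases (median -0.61), beside 52.0% of all genes tested. H2-Eb1 alone passed (-1.07, SE 0.36, edgeR adjusted p = 0.0299), beside 7.1% of all genes called lower.

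Summed over spots, markers of tumour tissue, cell division and airways were lower in members. The counts below stand beside 7.1% of all genes tested called lower and 52.0% lower in both mice. Of 10 tumour markers tested 8 fell, with a median of -2.53 against -0.078 over all genes. Hmga2, a chromatin protein of embryonic and tumour cells, had 0.936 and 17.6 CPM in members and 26.9 and 127.4 in low spots (log2 fold change -2.97, SE 0.46, edgeR adjusted p = 1.61e-06). Wnt7b and Has2, a hyaluronan synthase, fell by 2.76 (SE 0.42) and 2.80 (SE 0.46), and Il11, Loxl4, Gli3 and Tpbg were also among the 15 largest falls. Cell cycle genes were lower in both mice in all 12 cases, and 7 passed, among them Cdk1 (-2.08, SE 0.41) and Top2a (-1.47, SE 0.38). Of 8 airway genes 5 fell, with Bpifa1, a secreted airway defence protein, at 32.8 and 13.8 in members against 145.7 and 226.1 in low spots (-2.84, SE 0.41, edgeR adjusted p = 2.49e-07). The median spot did not follow the sum in mouse B. It had 509.3 CPM among members and 1384 among low spots in mouse A, and 450.7 and 89.3 in mouse B. Of 8 cardiac muscle genes 4 fell, Myh6 among them (-1.24, SE 0.37).

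Markers of other blood and lung cells also differed between members and low spots. Their part in the results above was not tested. The counts of calls below stand beside 6.42% of all genes tested called higher and 7.1% called lower. Erythroid genes rose in 2 of 3 tested, Hbb-bt by 1.74 (SE 0.37) and Alas2 by 1.74 (SE 0.41), and the summed level was 2841 in members and 1465 in low spots of mouse A, and 1463 and 326.5 in mouse B. Of the spots with the most erythroid UMIs, 53 of 170 were members in mouse A (31.2%, exact 95% interval 24.3% to 38.7%) and 58 of 278 in mouse B (20.9%, 16.2% to 26.1%). Both intervals treat spots as independent, which adjacent spots are not. Platelet genes rose in 3 of 7 (Ppbp, Itga2b and Tubb1) while Pf4 stood at 103.9 and 114.9 in members against 111.6 and 116.1. Mcpt8, a basophil protease, Hdc, which makes histamine, and Gata2 were called higher of 6 genes of mast cells, basophils and eosinophils, Gata2 with log2 ratios of -0.31 in A and 2.47 in B, and Epx of eosinophils had 0 UMIs in members. Of T and NK cell genes, Cd3d rose by 2.02 (SE 0.38), while Cd3e stood at 26.2 and 9.04 in members against 28.5 and 6.45 in low spots and Klrd1 had 0 UMIs in members. None of 10 B and plasma cell genes passed. Of 12 monocyte and macrophage genes, F13a1 rose and the complement genes C1qa, C1qb and C1qc fell, C1qa by 1.92 (SE 0.41). That 1 rise among 12 is near the share over all genes.

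Alveolar tissue differed in opposite ways in the 2 lungs. Alveolar type 2 genes, which make surfactant, summed to 9473 CPM in members and 13616 in low spots of mouse A, and to 10764 and 4880 in mouse B. Lung capillary genes summed to 4150 and 4297 in mouse A and to 4152 and 1072 in mouse B, so the members of the 2 lungs were alike and the low spots were not. Of 12 capillary genes 5 were called higher, beside 6.42% of all genes tested, but the median was -0.049 in A and 1.91 in B. Tmem100, one of the 5, had a log2 ratio of -0.028 in A and 3.03 in B.

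The comparison was repeated on alveolar spots alone, those at or above the section median in the summed share of alveolar and capillary genes, ranked again by the score. There the 4T1 tumour markers were at 171.6 CPM in the low spots of mouse A and 820.3 in those of mouse B, down from 259.8 and 1984. Of 10987 genes tested, 656 were higher (5.97%) and 884 lower (8.05%) by edgeR. The prior degrees of freedom of that fit were infinite, so its calls rest wholly on the spread shared across genes, with a median SE of 0.26 against 0.41 over the whole section. Receptor genes were called higher in 24 of 26 cases, with a median of 0.87, and their summed level rose by 0.46 on the log2 scale in mouse A and by 1.01 in mouse B. Secondary and tertiary granule genes were called in 12 of 20 cases (median 0.86) and NADPH oxidase genes in 3 of 5 (0.77). These neutrophil groups thus rose within alveolar spots as well, by less than over the whole section. No erythroid gene was called there (0 of 3), while their summed level was higher in members by 0.33 and 0.55 on the log2 scale (median 0.57). Capillary genes were called higher in 5 of 12 cases, but they helped choose the alveolar spots, so their values are a description. The log2 ratio of their summed level was 0.65 for B and only 0.097 for A. Tumour markers fell in 7 of 8 cases.

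The members were not uniform in mouse A. Its largest connected group of 57 spots, a band in the map, had 129156 score CPM against 106929 in the other 113 members. Alveolar type 2 genes stood at 3983 in that group and 11738 in the other members, and capillary genes at 1366 and 5298. Smooth muscle genes stood at 1632 and 215.6, and erythroid genes at 4765 and 2047. The group thus held less alveolar and capillary and more smooth muscle and erythroid transcript than the other members. The rule put every member above the cut and did not set the difference in score between the group and the other members. Receptor genes were at 13205 and 10237 and secondary and tertiary granule genes at 39726 and 30486, in the same order as the score. In mouse B the largest group of 51 spots differed in part in the same way: alveolar type 2 genes were at 8134 and 11409 and airway genes at 1282 and 476.2, against 1190 and 715.5 for airway genes in mouse A. Score genes were at 89849 and 90298, capillary genes at 4079 and 4170, smooth muscle genes at 234.9 and 188.1 and erythroid genes at 953.0 and 1588.

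Members were also ordered by score. In mouse A the highest of 3 equal groups of members had 4086 erythroid CPM against 2036 in the lowest, and 5244 against 11728 for alveolar type 2 genes. In mouse B the highest and lowest group had 1279 and 1636 for erythroid and 10034 and 11007 for alveolar type 2 genes. Across the members of a section, Spearman's rho of the score with the secondary and tertiary granule level was 0.72 in mouse A (170 spots) and 0.41 in mouse B (278 spots), and with the receptor level 0.51 and 0.33. With the capillary level it was -0.62 and -0.02, and with the erythroid level 0.45 and -0.01. These coefficients are descriptions, since spots of a section share a library and all levels share a denominator. With the primary granule level it was -0.08 and -0.16.

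Spots chosen by the same rule in the primary tumours were compared with those of the lung. Their median score was 1.5% in A and 3.85% in B, far below the lung members. Ngp and Camp together made up 9.55% and 9.31% of the score UMIs of lung members and 0.495% and 1.95% of those of the primary tumour. S100a9 had 1.22 and 1.02 times the UMIs of S100a8 in lung members and 2.32 and 2.55 times in the primary tumour. These ratios within the score describe spots that the same genes chose.

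Whether the class difference of a gene differed between lung and primary tumour was tested as an interaction in edgeR with the section as a block. Of 17858 genes tested 109 passed (0.61%), 25 with the larger value in lung (0.14%) and 84 with the smaller (0.47%). Fewer passed with DESeq2 (11), with spots thinned to 1000 UMIs (18) and without the block (0), and more with the top 20% of spots (320). None of the tested secondary and tertiary granule, NADPH oxidase or receptor genes was among them, with 21, 5 and 26 tested, beside the 0.61% of all genes tested. In the primary tumours alone 7.42% of 18402 genes were called in either direction. Cxcr2 rose by 1.94 in lung and 2.56 in the primary tumour on the log2 scale, a difference of -0.63 that did not pass (edgeR adjusted p = 0.821).

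Cxcl3, a CXCR2 ligand, had 0 UMIs and 1 UMI in the members of the lungs of mouse A and mouse B, and 309.5 and 573.3 CPM in the members of the primary tumours, where low spots had 26.0 and 71.6. Over both lungs the ratio of members to low spots was 0.135 (exact 95% counting interval 0.00337 to 0.782). It entered the interaction test through its level in the primary tumours alone, so these values are given as a description. Cd274, which encodes the checkpoint ligand PD-L1, had 24.3 and 14.9 in lung members against 30.8 and 28.0 in low spots, and rose by 1.25 in the primary tumour (difference -1.69, edgeR adjusted p = 0.0242). Il6 differed by -2.61 (adjusted p = 0.0408 by edgeR), with at most 15.5 CPM in any lung sum. Il1b did not differ at this threshold, with 1.52 in lung and 2.04 in the primary tumour (edgeR adjusted p = 0.856). For Cxcl3 no conclusion on a difference between the tissues is drawn, since its level in the primary tumours let it into the test.

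**Figure D3:**
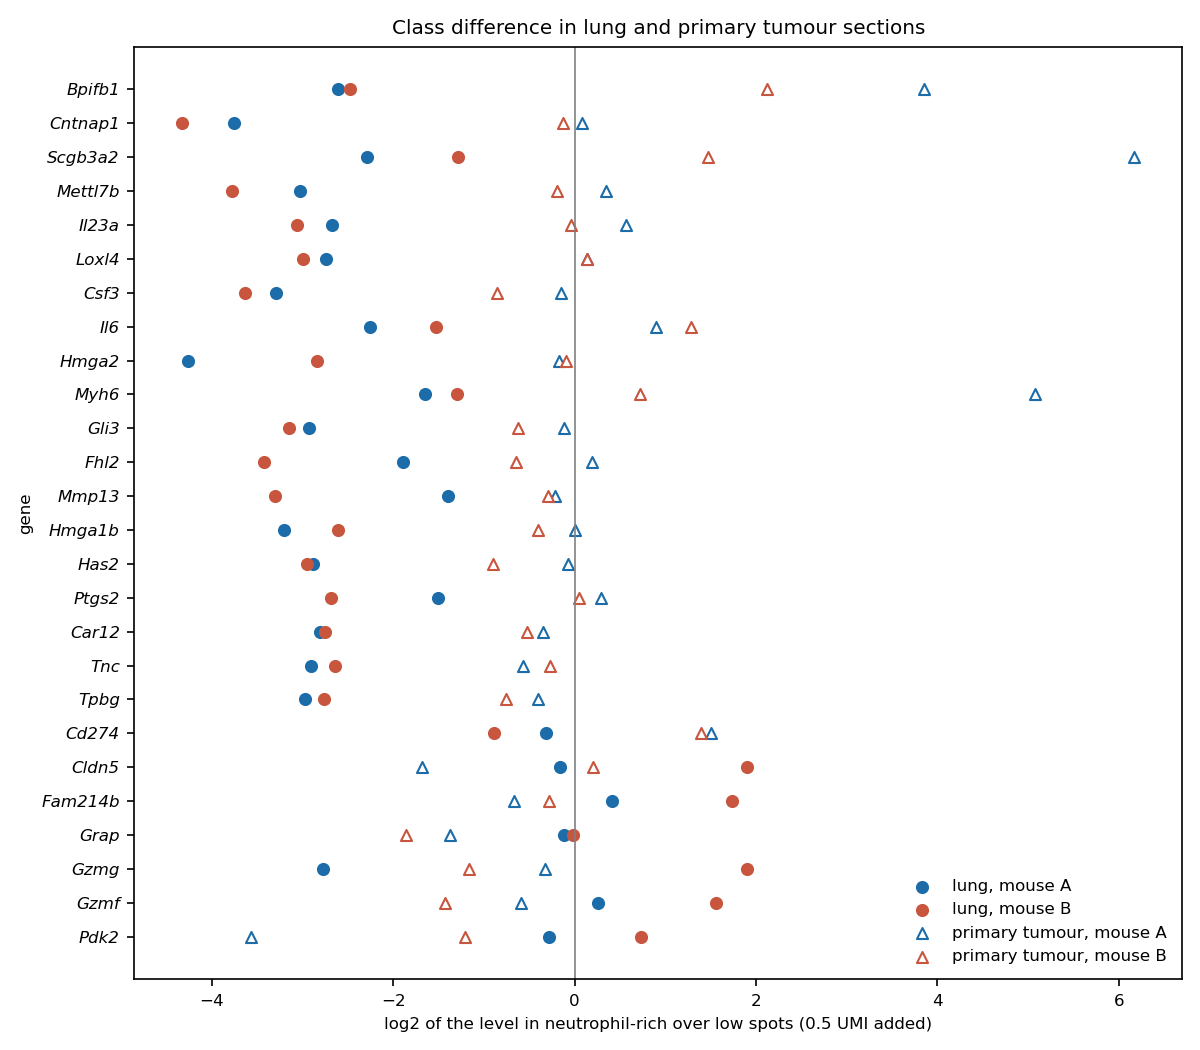
Log2 of the level in neutrophil-rich over low spots (0.5 UMI added) for 26 named genes whose class difference differed between lung (filled circles) and primary tumour (open triangles), in mouse A (blue) and mouse B (red). Each mark is 1 section, and Cxcl3 is left out because it was not tested in lung alone. Csf3 and Hmga2 lie farther left of 0 in lung than in the primary tumours, and Cd274 lies right of 0 in both primary tumours.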

How the data were processed

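Sections of lung and primary tumour of 2 mice (1 section per tissue and mouse) were profiled by 10x Visium for fixed tissue. The authors deposited UMI counts per gene and spot, made by Space Ranger 2.0.0 on mm10 and without normalization. From these counts, spots with more than 200 genes were kept (9339 of 9445), scored, ranked within a section and summed per class. The 8 score genes were left out of the sums and library sizes of the tests, apart from 1 alternative that kept them. R 4.3.3 and edgeR 4.0.16 (TMM, filterByExpr, quasi-likelihood test, Benjamini-Hochberg, threshold 0.05) were used with the mouse as a block, since the sums of a block share an animal. Deviations of sums of 1 animal from the class means had a correlation of 0.46. The test was checked on simulated data. DESeq2 1.42.0 was an alternative.

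The members and the 28 gene lists were chosen with earlier results of these data known. Genes were named by rule: the score genes, the 15 largest rises and 15 largest falls that were called, alike in both mice and at 20 CPM or more, the genes of the neutrophil lists, the 4 most abundant genes of each other list, and the 5 largest interactions in each direction. Further genes were named after their values were seen, where a count of called genes in a list was small. Levels are CPM of the summed counts, and per-mouse ratios had 0.5 UMI added. p-values rest on 2 mice. Intervals and limits cover counting error only, and those over spots treat adjacent spots as independent. A few named genes are not reported here.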

Additional observations from a re-analysis of the deposited data

Results flagged for a closer look

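The class difference of the following named genes differed between lung and primary tumour by the interaction test of edgeR, with values given as the log2 fold change in lung less that in the primary tumour. Ligands and mediators had negative values, with Cxcl3 at -5.61, a fitted value that rests on 1 UMI in all lung members and on the level in the primary tumours by which it entered the test. Il23a stood at -2.97, Csf3 at -2.71, Il6 at -2.61 and Cd274 at -1.69. Ptgs2 stood at -2.03. A further 12 genes had negative values, Cntnap1 at -4.29, Mettl7b at -3.54, Loxl4 at -2.72, Hmga2 at -2.60, Gli3 at -2.37, Fhl2 at -2.36, Mmp13 at -2.21, Hmga1b at -2.20, Has2 at -2.07, Car12 at -1.94, Tnc at -1.92 and Tpbg at -1.86. Cntnap1 had 0 and 2 UMIs in the lung members and 538 in the low spots of both lungs. The ratio of members to low spots was 0.0301 (exact 95% counting interval 0.00364 to 0.109). It passed the filter in lung through the low spots alone, so these values are a description. In each lung all 12 of these genes had a lower CPM in the members than in the low spots, beside 52.0% of all genes tested in lung. Their choice by a negative difference favours that outcome, as does, for Cntnap1, its entry through the low spots.

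Bpifb1 at -4.39, Scgb3a2 at -3.93 and Myh6 at -2.45 are genes of airway and heart muscle that were low in the lung members, and each rests on 10 UMIs or fewer in either sum of primary tumour members. Positive values were found for Pdk2 at 2.72, Gzmf at 2.63, Gzmg at 2.15, Grap at 2.08, Fam214b at 2.02 and Cldn5 at 1.86. Gzmf and Gzmg, granzyme genes, had at most 20 UMIs in either sum of lung members, and 246.6 to 550.5 CPM in primary tumour members.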

How the results depend on the processing

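Each comparison rests on 2 mice and on reference spots that differ between them: the low spots of mouse A still held neutrophil transcripts and those of mouse B held more tumour markers. No lung without a tumour in the body was analysed here. Counts of called genes changed between settings, and the cause of the changes below was not tested.

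The 774 higher and 855 lower genes became 407 and 234 with DESeq2, 440 and 463 with spots thinned to 2000 UMIs, 394 and 338 with the top 5% of spots, and 300 and 244 against the spots from the median to the 90th percentile. Against all other spots 400 were higher, and without the filter 397. The higher share of calls was 47.5% in the main comparison, 63.5% with DESeq2, 33.6% without the filter and 36% against all other spots. Without S100a8 and S100a9 in the score the counts were 0 and 29 (2831 genes at an unadjusted p under 0.05), and of the genes called in the main comparison 100% kept their sign. Without the replicate block, edgeR called 0 and 0 (746 at an unadjusted p under 0.05). Alveolar spots only, ranks of the score genes, the top 20%, interior spots and score genes kept in the library sizes stayed within 1.5 times.

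For the lung against the primary tumour, the 25 higher and 84 lower genes became 0 and 11 with DESeq2, 1 and 17 with spots thinned to 1000 UMIs, 110 and 210 with the top 20%, and 0 and 0 without the replicate block (360 at an unadjusted p under 0.05). The share of adjacent spots that were members was 55.3% in A and 69% in B with the top 20%, and 47.2% and 39.8% with the top 5%. Members then make up 20% and 5% of spots, so these shares are not on 1 scale with the 41.2% and 53.9% of the top 10%.

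Prtn3 turned to -0.083 in alveolar spots and to -0.085 against the spots from the median to the 90th percentile, and Elane to -0.057 in alveolar spots. These values did not pass (edgeR adjusted p = 0.857, 0.837 and 0.927). Reg3g and Bpifb1 turned to 0.48 and 0.20 against the spots from the median to the 90th percentile, and neither value passed. With 1 mouse left out, Tmem100 ranged from -0.028 to 3.03 and Gata2 from -0.31 to 2.47.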

Other observations

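Calls in the other lists of lung cell types were few, and over all genes tested 6.42% were called higher and 7.1% lower. Of 11 genes for adhesion of neutrophils to endothelium 2 were called higher and 1 lower by edgeR, with a median log2 fold change of 0.70 (-0.087 in A and 1.01 in B). Alveolar type 2 genes gave 1 call of 9 and alveolar type 1 genes 1 of 10, both higher. Of 9 fibroblast genes Col1a1 fell (-1.30, SE 0.45, edgeR adjusted p = 0.0353), and Inmt stood at 1.09 (SE 0.59). None of 8 smooth muscle genes and none of 3 adipose genes passed. Mrc1, a mannose receptor of macrophages, was the 1 call among 5 alveolar macrophage genes (-1.24, SE 0.37), and Chil3 had 11.2 and 38.8 CPM in members against 14.7 and 12.1 in low spots.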
